A study of Mus musculus with 24 samples.

Results

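A set of 9 genes of the contractile apparatus, elastin and the PDGF receptor β were followed in mouse neural progenitor cells given either mirror-image form of the BET inhibitor JQ1. The 9 genes are Acta2, Tagln, Actc1, Cnn1, Myl9, Tpm1, Tpm2, Eln and Pdgfrb, out of 26636 genes with a single entry in the deposited tables. They were selected on their measured values over all 8 groups, so their levels and fold changes below are a description and carry no p-value. At 0.5 µM and 24 h all 9 were lower with (+)-JQ1 than with (-)-JQ1 in every library, by between 1.55-fold (Tpm1) and 22.9-fold (Actc1) in group means where each library held reads. Of the 13801 genes tested in the series, 29.4% also had all (+)-JQ1 libraries below all (-)-JQ1 libraries in this comparison. The fold of Actc1 rests on (+)-JQ1 values of at most 0.147 FPKM, and so on few reads. All but Actc1 had higher group means after 24 h of (-)-JQ1 than after 12 h, whichever the dose.

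The cells came from cortices of C57BL/6 embryos at embryonic day 12, were expanded with B27 supplement and basic fibroblast growth factor, and were used at passage 3. Cells in differentiation medium were exposed to one enantiomer, (+)-JQ1 or (-)-JQ1, at a dose of 0.2 or 0.5 µM, and were collected after 12 or 24 h. The design thus holds 8 groups with 3 libraries in each, 24 in all. Each group was made in 3 independent preparations, so the spread between replicates is the spread between preparations. All 8 groups received a compound, and the control is the inactive enantiomer, (-)-JQ1, at the same dose and time. Values are FPKM, a fragment count scaled to transcript length and library size. Relative depth, read from the steps between low values, ran from 0.939 to 1.05 between libraries. Of the summed FPKM, 42.7% and 46.9% belonged to the microRNA gene Mir5105 in 2 libraries, (-)-JQ1 0.2 µM 24 h replicate 1 and (+)-JQ1 0.2 µM 24 h replicate 2, against 2.71% to 6.69% in the other 22. Hexim1, a negative regulator of P-TEFb whose rise is widely used as a sign of BET inhibition, was higher with (+)-JQ1 in all 4 comparisons, with 19.6 ± 1.03 against 64.5 ± 3.35 FPKM (SD, n = 3) at 0.5 µM and 24 h.

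Acta2 encodes smooth muscle α-actin, Actc1 the cardiac α-actin, Tagln the actin-binding protein transgelin (SM22α), Cnn1 calponin, Myl9 a myosin regulatory light chain, and Tpm1 and Tpm2 tropomyosins that lie along the actin filament. Eln encodes elastin, the core of elastic fibres, and Pdgfrb a receptor tyrosine kinase for PDGF that marks pericytes in brain. Many contractile genes are driven by serum response factor (SRF), which binds a DNA element called the CArG box and works with myocardin or with the myocardin-related factors, whose entry into the nucleus follows actin polymerisation. In the vessel wall these genes mark smooth muscle cells and pericytes, while Acta2, Tagln and Myl9 also appear in many cultured cells that are not muscle.

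The term smooth muscle describes the genes here and was not taken to describe the cells. Some genes of mature smooth muscle were at or near 0. Smooth muscle myosin Myh11 lay between 0.0424 and 0.264 FPKM. Des was listed at 0 in 18 of 24 libraries with a highest value of 0.116. The SRF cofactor Myocd was listed at 0 in 15 with a highest value of 0.0360. Others were low but present. Smtn lay between 0.668 and 1.72 FPKM and reached 1 FPKM in 18 of 24 libraries, and Lmod1 reached at most 1.54. Of the 4 genes that define mural cells (pericytes and vascular smooth muscle), Kcnj8 was listed at 0 in all 24 libraries, and Rgs5, Myh11 and Abcc9 reached at most 0.106, 0.264 and 0.295 FPKM. Less specific genes of these lists were present, such as Notch3 (5.91 to 22.4 FPKM), Vtn (2.56 to 32.5), Synpo2 (1.32 to 7.51) and Hspb6 (1.99 to 6.55). The neural progenitor genes Nes (58.0 to 149 FPKM), Sox2 (192 to 369) and Fabp7 (1318 to 4859) were high throughout. In these bulk samples, fewer cells of one type and less RNA per cell cannot be told apart.

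Upstream sequences were looked up to show which of the 9 genes hold an exact CArG box next to their start, meaning CC, 6 bases of A or T, and GG. RefSeq (GRCm38.p6) starts were matched by symbol for 6 of 9, Acta2, Actc1, Cnn1, Myl9, Tpm1 and Tpm2. This match skipped a chromosome that the share over all starts did not skip. The lack of a match for Tagln, Eln and Pdgfrb, whatever its reason, does not mean that they have no start. This is not the build used for alignment, so these positions belong to the reference only. The 250 bases before the start held an exact CArG box in Actc1, at bases -47 to -38, and in Myl9, at bases -161 to -152, counted back from the start. Over all mouse starts 482 of 32851 (1.47%) held one on either strand in the same window. The sequences of both, with the CArG box in capitals, and that of Acta2, which was the most abundant smooth muscle actin gene and held no exact match, read 5′ to 3′ as follows.
Actc1 (chr2:114052876-114053125, minus strand): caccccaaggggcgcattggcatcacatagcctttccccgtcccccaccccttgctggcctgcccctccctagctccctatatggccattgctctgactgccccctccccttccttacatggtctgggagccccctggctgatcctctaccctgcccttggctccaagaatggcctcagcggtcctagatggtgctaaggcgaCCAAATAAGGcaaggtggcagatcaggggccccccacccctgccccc
Myl9 (chr2:156775214-156775463, plus strand): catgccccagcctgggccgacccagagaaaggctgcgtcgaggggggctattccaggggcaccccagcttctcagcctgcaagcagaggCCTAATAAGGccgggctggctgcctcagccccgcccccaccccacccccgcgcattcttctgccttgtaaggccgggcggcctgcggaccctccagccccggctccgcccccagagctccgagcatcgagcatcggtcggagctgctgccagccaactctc
Acta2 (chr19:34255374-34255623, minus strand): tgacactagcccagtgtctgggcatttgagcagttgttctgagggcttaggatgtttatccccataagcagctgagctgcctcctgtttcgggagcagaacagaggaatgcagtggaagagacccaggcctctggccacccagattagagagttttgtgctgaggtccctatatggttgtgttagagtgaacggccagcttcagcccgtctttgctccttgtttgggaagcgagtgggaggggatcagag
The MCAT element (CATTCC on one strand, GGAATG on the other), which TEAD factors bind, lay at bases -146 to -141 in Acta2 and -56 to -51 in Tpm1, and in 12.6% of all starts. Neither motif was found in Cnn1 or Tpm2. A match describes letters in this window and not binding. Near matches to the CArG box, such as ccctatatgg in Acta2 and Actc1 and ccttgtttgg in Acta2, were not counted. The lack of an exact match therefore does not show that a gene has no CArG box.

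Acta2 had the highest mean of the 9 genes in each (-)-JQ1 group, and over time it went opposite ways in the 2 enantiomers at 0.5 µM. At 0.2 µM and 12 h its 3 libraries read 57.0, 69.2 and 63.8 FPKM in (-)-JQ1 and 38.8, 51.2 and 42.6 in (+)-JQ1. The 0.5 µM libraries at 12 h read 57.0, 69.6 and 60.7 in (-)-JQ1 and 37.9, 38.2 and 36.0 in (+)-JQ1. The groups did not overlap at either dose, and the differences were of similar size, -0.51 ± 0.15 and -0.72 ± 0.15 (log2 fold change ± SE, on the log2(FPKM + 1) scale). By 24 h the (-)-JQ1 libraries had reached 145, 115 and 122 FPKM at 0.2 µM, and the (+)-JQ1 libraries stood at 63.7, 42.2 and 46.5. With 0.5 µM at 24 h the values were 132, 123 and 95.2 in (-)-JQ1 and 26.2, 21.4 and 21.4 in (+)-JQ1. The log2 fold change was -1.32 ± 0.15 at the lower dose and -2.29 ± 0.15 at the higher dose, where (+)-JQ1 held 19.7% of the (-)-JQ1 mean. All 3 libraries of (+)-JQ1 at 0.5 µM were lower at 24 h than any at 12 h (ratio of means 0.615), while in (-)-JQ1 the mean rose 1.87-fold. In the order of the 8 group means, both (-)-JQ1 groups at 24 h stood clear at the top and (+)-JQ1 0.5 µM 24 h at the bottom, and the 2 (-)-JQ1 groups at 12 h and (+)-JQ1 0.2 µM 24 h overlapped their neighbours between them. The difference at 0.2 µM and 12 h was no longer called without (-)-JQ1 replicate 2 (-0.45) or without (+)-JQ1 replicate 1 (-0.43).

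**Figure D1:**
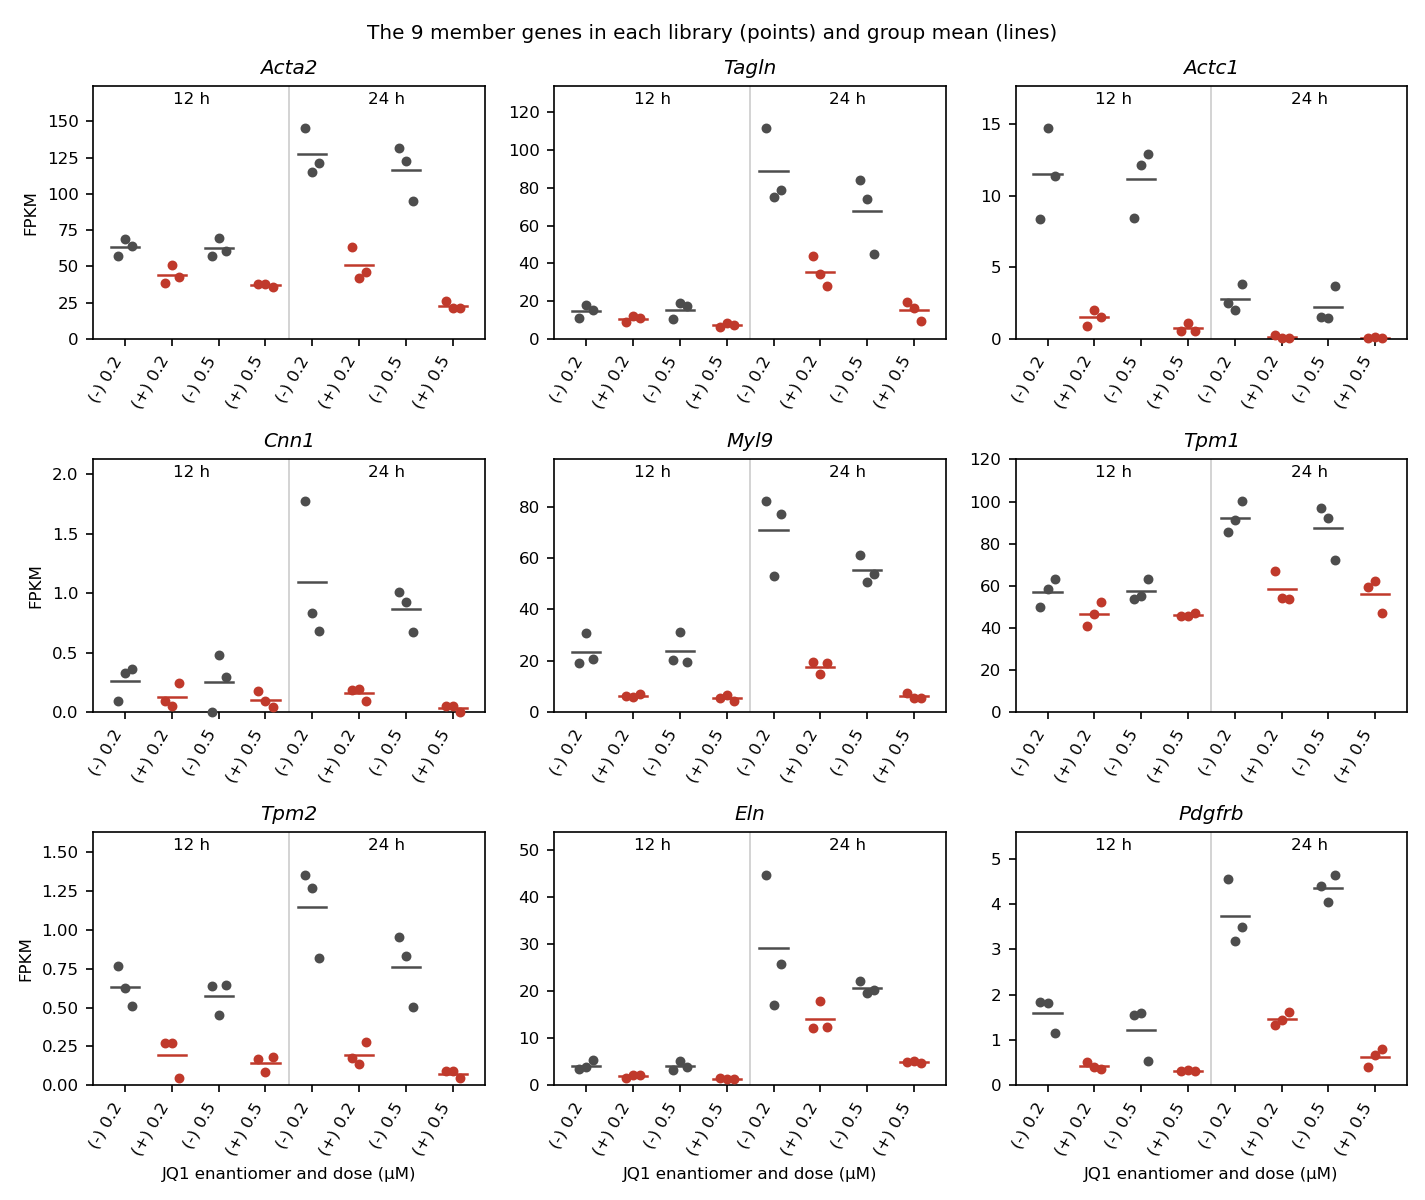
FPKM of the 9 genes (one panel each, linear axes from 0) in every library, by enantiomer, dose in µM and time; points are libraries, short lines the mean of 3, grey for (-)-JQ1 and red for (+)-JQ1. At 0.5 µM and 24 h the red points lie below all grey points in each panel, and Actc1 is the one gene that is lower at 24 h than at 12 h in (-)-JQ1.

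Tagln was lower than Acta2 at 12 h and, unlike it, had a higher mean at 24 h than at 12 h in all 4 arms. At 12 h it read 11.0, 18.1 and 15.6 FPKM in (-)-JQ1 and 8.96, 12.0 and 11.0 in (+)-JQ1 at 0.2 µM, where the groups overlapped. At 0.5 µM the 12 h values were 10.4, 19.1 and 17.2 against 6.51, 8.66 and 7.37, without overlap. The spread between (-)-JQ1 preparations was wide here, and the difference at 0.5 µM (-0.93 ± 0.27) was no longer called without (-)-JQ1 replicate 2 (-0.77). At 24 h the (-)-JQ1 libraries read 112, 75.4 and 79.1 FPKM at 0.2 µM and 84.0, 73.9 and 45.1 at 0.5 µM. Their (+)-JQ1 counterparts read 43.8, 34.6 and 28.3 at 0.2 µM and 19.7, 16.2 and 9.70 at 0.5 µM. Neither pair of groups overlapped, with log2 fold changes of -1.29 ± 0.27 and -2.09 ± 0.27. Between 12 and 24 h the mean of Tagln changed 3.34-fold with 0.2 µM and 2.03-fold with 0.5 µM of (+)-JQ1, the second not called, against 5.96-fold and 4.34-fold in (-)-JQ1.

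Myl9 was lower with (+)-JQ1 by a similar factor at 3 of the 4 doses and times and by more at 0.5 µM and 24 h. In the 12 h libraries it read 19.1, 30.6 and 20.6 FPKM in (-)-JQ1 and 6.32, 5.72 and 7.15 in (+)-JQ1 at 0.2 µM. The 0.5 µM libraries gave 20.3, 31.0 and 19.6 against 5.39, 6.76 and 4.28. So the (+)-JQ1 means stood at 27.3% and 23.2% of the (-)-JQ1 means by 12 h, when those of Acta2 stood at 69.8% and 59.9%. At 24 h (-)-JQ1 libraries read 82.0, 53.1 and 77.2 FPKM at 0.2 µM and 61.1, 50.5 and 53.8 at 0.5 µM. The (+)-JQ1 libraries read 19.4, 14.7 and 18.9 at 0.2 µM and 7.33, 5.35 and 5.67 at 0.5 µM. Myl9 therefore rose with time under 0.2 µM (+)-JQ1 (2.76-fold) but moved little under 0.5 µM, where the 12 and 24 h libraries overlapped (1.12-fold). Log2 fold changes between the enantiomers were -1.70, -1.92, -1.93 and -2.99 (SE 0.20 each), in the order 0.2 and 0.5 µM at 12 h, then 0.2 and 0.5 µM at 24 h.

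Actc1 was the exception in time. It was highest at 12 h in (-)-JQ1, with 8.40, 14.7 and 11.4 FPKM at 0.2 µM and 8.42, 12.1 and 12.9 at 0.5 µM. In (+)-JQ1 at 12 h it read 0.936, 2.05 and 1.56 at 0.2 µM and 0.542, 1.08 and 0.577 at 0.5 µM, which is 13.2% and 6.58% of the (-)-JQ1 means. By 24 h the (-)-JQ1 libraries had fallen to 2.52, 2.02 and 3.84 FPKM at 0.2 µM and 1.52, 1.46 and 3.70 at 0.5 µM. The 6 (+)-JQ1 libraries at 24 h read 0.282, 0.0740 and 0.0735 at 0.2 µM and 0.0724, 0.147 and 0.0725 at 0.5 µM. The groups never overlapped, and the share left in (+)-JQ1 at 24 h was 5.13% and 4.36%. Of those 6 libraries, 4 lay between 0.0724 and 0.0740 FPKM, the lowest values of the gene, so these shares and the fold in group means rest on few reads. Because the added 1 FPKM weighs on values this low, the log2 fold changes at 24 h (-1.71 ± 0.24 and -1.49 ± 0.24) were smaller than at 12 h (-2.31 ± 0.24 and -2.80 ± 0.24), although the ratios of means were larger. With 0.1 FPKM added instead, the 24 h values were -3.63 and -3.45. The skeletal actin Acta1, whose coding sequence is close to those of Acta2 and Actc1, lay between 14.3 and 56.7 FPKM in all libraries and changed by -0.36 ± 0.33 at 0.5 µM and 24 h (limma adjusted p = 0.431). How reads shared by these actin genes were assigned was not given in the sources used here, so their split is uncertain.

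Tropomyosin 1, another abundant member, differed least. Tpm1 read 49.8, 58.7 and 63.4 FPKM in (-)-JQ1 and 41.1, 46.6 and 52.5 in (+)-JQ1 at 0.2 µM and 12 h, where the groups overlapped. At 0.5 µM and 12 h the libraries read 53.9, 55.3 and 63.2 against 45.6, 45.7 and 47.0, close together but without overlap. The 12 h differences were -0.29 ± 0.13 and -0.31 ± 0.13, and the second was -0.19 with each library divided by its median ratio to the rest. At 24 h Tpm1 read 85.6, 91.4 and 100.1 FPKM in (-)-JQ1 and 67.1, 54.1 and 53.7 in (+)-JQ1 at 0.2 µM. The higher dose gave 97.1, 92.3 and 72.3 against 59.5, 62.4 and 46.9. Both doses left a similar share, 63.1% and 64.5% of the (-)-JQ1 mean, with log2 fold changes of -0.66 ± 0.13 and -0.62 ± 0.13, so no further step with dose was seen.

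Cnn1 and Tpm2 were the scarce members and did not pass the filter of at least 1 FPKM in at least 3 libraries, which each reached in 2 libraries only. Their FPKM values resolved into whole reads, with 1 read worth 0.0474 FPKM for Cnn1 and 0.0446 for Tpm2 in a library of mean depth. Cnn1 held 37, 18 and 15 reads in (-)-JQ1 and 4, 4 and 2 in (+)-JQ1 at 0.2 µM and 24 h. At 0.5 µM it held 20, 20 and 14 against 1, 1 and 0. At 12 h every library had 10 reads or fewer, the enantiomers overlapped at both doses, and no difference was detectable at this depth. Tpm2 held 30, 29 and 19 reads against 4, 3 and 6 at 0.2 µM and 24 h, and 20, 19 and 11 against 2, 2 and 1 at 0.5 µM. Unlike Cnn1 it was separated already at 12 h, with 18, 14 and 12 reads against 6, 6 and 1 at 0.2 µM and 15, 10 and 14 against 4, 2 and 4 at 0.5 µM. Between 12 and 24 h in (-)-JQ1 the mean FPKM of Tpm2 changed 1.81-fold and 1.32-fold at the 2 doses, and that of Cnn1 4.19-fold and 3.40-fold.

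Elastin was the one member called higher with time in all 4 arms. Eln read 3.41, 3.91 and 5.30 FPKM in (-)-JQ1 and 1.504, 2.16 and 2.12 in (+)-JQ1 at 0.2 µM and 12 h. The 0.5 µM libraries of that time read 3.29, 5.25 and 3.82 against 1.57, 1.44 and 1.36, so neither pair of groups overlapped. At 24 h and 0.2 µM the values were 44.8, 16.998 and 25.8 in (-)-JQ1 and 12.2, 17.9 and 12.3 in (+)-JQ1. This is the one 24 h comparison of a member in which libraries overlapped, and both extremes, the 44.8 and the 17.9, came from the 2 libraries rich in Mir5105. The log2 fold change there was -0.91 ± 0.23, and it was -0.56 without (-)-JQ1 replicate 1 and -0.73 without both of those libraries. At 0.5 µM the groups were tight and apart, with 22.2, 19.6 and 20.3 against 4.95, 5.28 and 4.66 FPKM, a log2 fold change of -1.86 ± 0.23. Elastin rose with time in all 4 arms, 6.94-fold and 5.03-fold in (-)-JQ1 and 7.34-fold and 3.41-fold in (+)-JQ1 at 0.2 and 0.5 µM. The 12 h differences were -0.82 ± 0.23 and -1.04 ± 0.23, and the first was no longer called without (-)-JQ1 replicate 3 (-0.68) or (+)-JQ1 replicate 1 (-0.71).

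Pdgfrb was low in all groups. It read 1.83, 1.82 and 1.16 FPKM in (-)-JQ1 and 0.525, 0.400 and 0.364 in (+)-JQ1 at 0.2 µM and 12 h. Its 12 h values at 0.5 µM were 1.56, 1.60 and 0.534 against 0.324, 0.339 and 0.312. One (-)-JQ1 library, replicate 3 at 0.5 µM, stood well below its group, with 32 reads where the others had 101 and 98. At 24 h Pdgfrb read 4.54, 3.19 and 3.48 FPKM against 1.33, 1.43 and 1.61 at 0.2 µM, and 4.39, 4.03 and 4.65 against 0.396, 0.669 and 0.792 at 0.5 µM. The groups were apart in all 4 comparisons, with shares of 26.7%, 26.4%, 39.0% and 14.2% left in (+)-JQ1 in the same order. The log2 fold changes of -0.86, -0.71, -0.94 and -1.73 (SE 0.17 each) understate these ratios, and with 0.1 FPKM added they were -1.67, -1.52, -1.29 and -2.67.

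Across the 4 comparisons of the enantiomers, 5, 6, 7 and 7 of the 7 members that passed the filter were called lower in limma, where a call needs a p below 0.05 after Benjamini-Hochberg adjustment. Over all 13801 genes tested, 19.6%, 26.1%, 21.8% and 24.5% were called lower and 8.23%, 12.2%, 11.0% and 13.7% higher, in the order 0.2 and 0.5 µM at 12 h and 0.2 and 0.5 µM at 24 h. The median log2 fold change of the 7 was -0.82, -0.93, -1.29 and -1.86, beside -0.07, -0.10, -0.07 and -0.05 for all genes tested. All (+)-JQ1 libraries lay below all (-)-JQ1 libraries for 5, 7, 6 and 7 of these 7, a pattern that 30.2%, 37.5%, 22.3% and 29.4% of the genes tested also showed. With Cnn1 and Tpm2 counted, it held for 6, 8, 8 and 9 of 9. The members were selected on these values, so the counts describe them and test nothing.

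**Figure D2:**
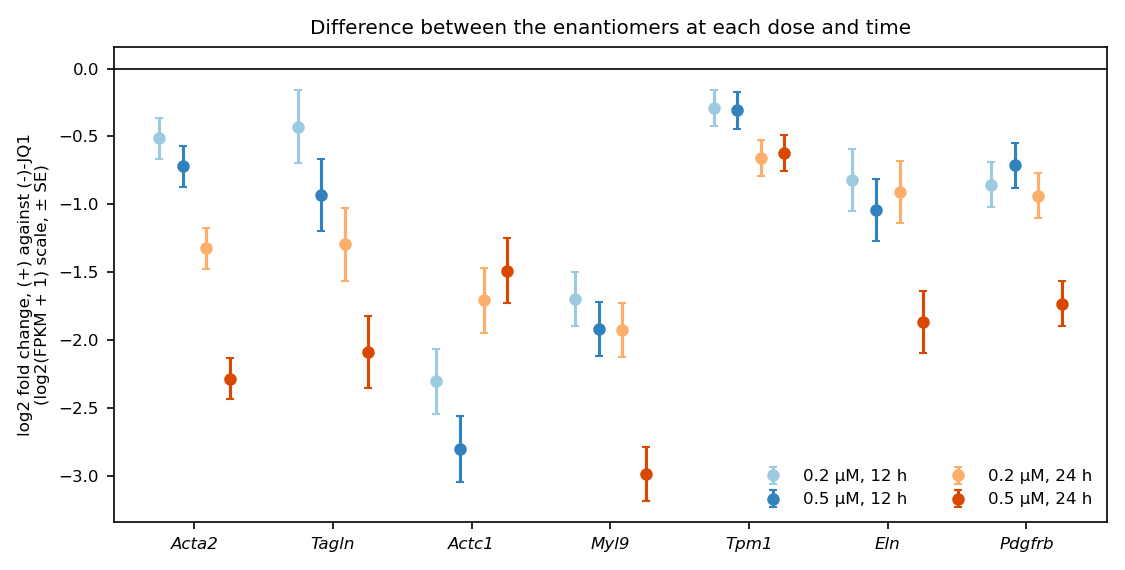
Log2 fold change of (+) against (-)-JQ1 (log2(FPKM + 1) scale, vertical axis) with its standard error for the 7 genes that passed the filter, coloured by dose and time. All 28 points lie below 0. Acta2, Tagln, Myl9, Eln and Pdgfrb reach their lowest point at 0.5 µM and 24 h, Tpm1 does not go beyond its 0.2 µM value, and the shallower 24 h points of Actc1 reflect values near 0.

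The inactive enantiomer showed little dependence on dose. Between 0.5 and 0.2 µM of (-)-JQ1 the 7 members differed by -0.25 to 0.05 on the log2 scale at 12 h and by -0.41 to 0.19 at 24 h. With (+)-JQ1 the 2 doses were close at 12 h (-0.53 to -0.01) and apart at 24 h for some genes. The calls given here describe genes that were selected on these values, and they test nothing. At 24 h the higher dose was lower by -1.09 ± 0.15 for Acta2, -1.20 ± 0.27 for Tagln, -1.39 ± 0.20 for Myl9 and -1.32 ± 0.23 for Eln, and these 4 of 7 were called, where 2.05% of all genes tested were called lower. Pdgfrb differed by -0.61 ± 0.17, Tpm1 by -0.05 ± 0.13 and Actc1, near 0 in both groups, by -0.05 ± 0.24, none of them called.

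The members also changed with time. As they were selected on values at both times and doses, the calls in this paragraph describe them and test nothing. In (-)-JQ1, 6 of the 7 were called higher and 1, Actc1, lower at 24 h than at 12 h, at 0.2 µM as at 0.5 µM. Of all genes tested, 4.68% and 3.89% were called higher and 1.40% and 1.30% lower. With (+)-JQ1 at 0.2 µM, 4 of the 7 (Tagln, Myl9, Eln and Pdgfrb) were called higher and Actc1 lower, against 2.67% and 0.623% of all genes. At 0.5 µM of (+)-JQ1 the picture was different: Eln alone was called higher and Acta2 alone lower, against 2.77% and 1.44%. The change of the enantiomer effect from 12 to 24 h at 0.5 µM was -1.57 ± 0.21 for Acta2, -1.16 ± 0.38 for Tagln, -1.07 ± 0.28 for Myl9, -1.02 ± 0.23 for Pdgfrb, -0.82 ± 0.32 for Eln, -0.32 ± 0.19 for Tpm1 and 1.31 ± 0.34 for Actc1. Acta2 was the one member called there, in a contrast that called 0.326% of all genes in either direction. The change of the effect from 0.2 to 0.5 µM at 24 h, which called 0.290% of all genes, was -0.96 ± 0.21 for Acta2, -1.06 ± 0.28 for Myl9, -0.95 ± 0.32 for Eln, -0.79 ± 0.38 for Tagln, -0.79 ± 0.23 for Pdgfrb, 0.04 ± 0.19 for Tpm1 and 0.22 ± 0.34 for Actc1, with no member called.

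**Figure D3:**
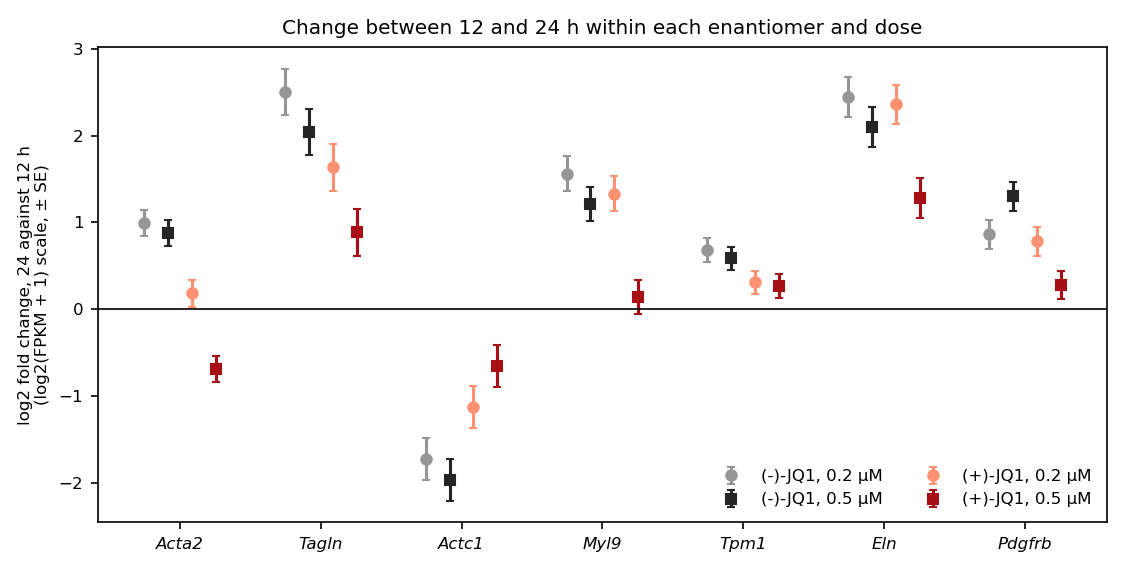
Log2 fold change of 24 against 12 h (log2(FPKM + 1) scale, vertical axis) with its standard error for the 7 genes that passed the filter, within each enantiomer (grey and black (-), light and dark red (+)) and dose. In (-)-JQ1 every gene but Actc1 rises. With 0.5 µM (+)-JQ1 Acta2 turns to a fall of -0.68, Myl9 stays at 0.14, and Eln still rises by 1.28.

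Of the 2 libraries rich in Mir5105, the (-)-JQ1 one was mostly at the top of its group. In (-)-JQ1 0.2 µM 24 h, replicate 1 was the highest of 3 for 7 of the 9 members and the lowest for 1, while replicate 2 of (+)-JQ1 0.2 µM 24 h was the highest for 2 and the lowest for 3. Without both, the log2 fold changes at 0.2 µM and 24 h were -1.10 for Acta2, -1.11 for Tagln, -1.70 for Actc1, -1.69 for Myl9, -0.66 for Tpm1 and -0.81 for Pdgfrb. All 7 members that passed the filter were called lower there, which describes genes selected on these values and tests nothing. In the main fit of this comparison 21.8% of all genes tested were called lower. The share without both libraries was not counted.

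Other genes of the same systems were taken from 6 lists, 83 genes in all, of which 64 passed the filter. Of these 64, 21, 20, 23 and 28 were called lower and 7, 10, 8 and 7 higher in the 4 comparisons, in the same order, beside the all-gene shares of 19.6%, 26.1%, 21.8% and 24.5% lower and 8.23%, 12.2%, 11.0% and 13.7% higher. The counts called higher were less steady than those called lower. Leaving out 1 library gave 2 to 4 higher at 0.2 µM and 12 h, whichever library it was. At 0.5 µM and 12 h the count was 6 without (-)-JQ1 replicate 1 or (+)-JQ1 replicate 2. At 24 h it was 4 without (-)-JQ1 replicate 3 at 0.2 µM, and at 0.5 µM 4 without (-)-JQ1 replicate 2 and 3 without (+)-JQ1 replicate 1. With libraries divided by their median ratio, the split at 24 h was 20 lower and 12 higher at 0.2 µM, and 26 lower and 11 higher at 0.5 µM. The all-gene median shifted by 0.08 to 0.10 under that scaling. In the main fit the lists differed widely, from elastic fibre and PDGF genes that were mostly lower to SRF and YAP genes of which more were called higher than lower.

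Most elastic fibre genes other than Eln were called lower at each dose and time. Of 13 tested, 10, 9, 10 and 10 were called lower and 1 higher, at 0.5 µM and 12 h, with medians of -0.78, -0.83, -0.83 and -1.22. Mfap4, a microfibril-associated protein, read 6.63 ± 1.26 FPKM in (-)-JQ1 and 0.549 ± 0.264 in (+)-JQ1 (SD, n = 3) at 0.5 µM and 24 h, a log2 fold change of -2.30 ± 0.25 (limma adjusted p = 2.42e-07). Lox and Loxl1, enzymes that cross-link elastin, fell by 1.73 ± 0.27 and 1.58 ± 0.17 on the log2 scale (limma adjusted p = 2.37e-05 and 2.11e-07). The microfibril backbone Fbn1 was not called at 0.5 µM and 24 h (-0.04 ± 0.16, limma adjusted p = 0.877) and was the gene called higher at 0.5 µM and 12 h (0.42 ± 0.16, limma adjusted p = 0.0440).

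The PDGF genes tested were lower with Pdgfrb in all 4 comparisons, 3 of 3 in each, with medians of -0.68, -0.92, -0.57 and -1.29. They are the ligands Pdgfa and Pdgfc and the other receptor, Pdgfra, known in brain as a gene of oligodendrocyte precursors. Pdgfra differed from Pdgfrb in level and course. It was already high at 12 h, with 43.1 ± 4.87 and 43.2 ± 3.91 FPKM in (-)-JQ1 at 0.2 and 0.5 µM, and stayed at 39.6 ± 3.86 and 40.4 ± 1.64 at 24 h. In (+)-JQ1 it stood at 25.4 ± 2.74 and 15.5 ± 0.415 at 12 h and at 26.4 ± 3.17 and 15.95 ± 0.369 at 24 h. Its log2 fold change at 24 h was -0.57 ± 0.10 at 0.2 µM and -1.29 ± 0.10 at 0.5 µM, and it was the one pathway gene of 64 called for the difference between doses at 24 h (-0.72 ± 0.15, limma adjusted p = 0.0383). Pdgfa fell by 1.41 ± 0.19 and Pdgfc by 0.63 ± 0.14 at 0.5 µM and 24 h (limma adjusted p = 5.68e-06 and 0.00141).

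Few of the smooth muscle genes outside the 9 could be tested. Of 14, 8 did not pass the filter, and of the 6 tested 1, 1, 1 and 3 were called lower, and 1 higher at each dose at 24 h. With the median-ratio scaling, 1 was called lower and 1 higher at 0.5 µM and 24 h. Synpo2, an actin-bundling protein, was called lower in all 4 comparisons, at 0.2 µM and 12 h not with the median-ratio scaling, and read 6.03 ± 0.764 against 1.66 ± 0.410 FPKM at 0.5 µM and 24 h (-1.41 ± 0.16, limma adjusted p = 3.97e-07). Hspb6, a small heat shock protein of smooth muscle, fell by 0.45 ± 0.17 (limma adjusted p = 0.0417), and Ppp1r12b, a regulatory subunit of myosin phosphatase, rose by 0.41 ± 0.13 (limma adjusted p = 0.0151).

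Actin and myosin genes of non-muscle cells were mostly not called. Of 16 tested, 3, 4, 3 and 5 were called lower and 2, 3, 1 and 1 higher, with medians of -0.01, -0.06, -0.19 and -0.14, which turned to 0.08 and 0.06 at 12 h with the median-ratio scaling. The 5 called lower at 0.5 µM and 24 h were Tagln3, Cald1, Cnn2, the tropomyosin Tpm4 and the cytoplasmic actin Actg1, and the actinin Actn4 was called higher there (0.24 ± 0.09, limma adjusted p = 0.0326). Actn4 was called higher in all 4 comparisons, and Actn1 at both doses at 12 h. Tagln3, a transgelin of neurons, fell by 2.41 ± 0.14 at 0.5 µM and 24 h, from 18.6 ± 1.02 to 2.70 ± 0.198 FPKM (limma adjusted p = 1.45e-11). Caldesmon, Cald1, which binds actin and tropomyosin, fell by 1.64 ± 0.18 (limma adjusted p = 3.18e-07), and the calponin Cnn2 by 1.43 ± 0.32 (limma adjusted p = 0.00152).

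The SRF, MRTF and YAP list went both ways. Of 17 tested, 2, 2, 3 and 3 were called lower and 4, 5, 5 and 4 higher, with medians of 0.07, 0.14, 0.09 and 0.03. The median-ratio scaling gave 4, 6, 8 and 6 higher and the same numbers lower. Other fits gave fewer higher. Leaving out 1 library left 2 to 4 called higher over all pathway lists together at 0.2 µM and 12 h. With only the 6 libraries compared, 1 was called higher over all these lists at 0.2 µM and 24 h. Srf itself was not called at 0.5 µM and 24 h (0.03 ± 0.17, limma adjusted p = 0.907). The list's 3 called lower there encode LIM domain proteins that bind the cytoskeleton. Fhl2 fell by 2.15 ± 0.21, from 4.80 ± 0.956 to 0.296 ± 0.0953 FPKM (limma adjusted p = 4.43e-08), and Csrp1 by 1.13 ± 0.16 (limma adjusted p = 8.94e-06). Csrp2 changed direction, called higher at 0.5 µM and 12 h (0.42 ± 0.15, limma adjusted p = 0.0362) and lower at 24 h (-0.90 ± 0.15, limma adjusted p = 7.18e-05), and the difference between these was called (-1.32 ± 0.22, limma adjusted p = 0.00545). The 4 called higher at 0.5 µM and 24 h were Tead1 (0.66 ± 0.13), the MRTF-A gene Mkl1 (0.48 ± 0.13), Rock2 (0.46 ± 0.14) and Yap1 (0.37 ± 0.10), with limma adjusted p of 0.000376, 0.00519, 0.0154 and 0.00425.

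TGF-beta genes moved by small amounts. Of 9 tested, 2, 1, 3 and 4 were called lower and 1 higher in each comparison, and with the median-ratio scaling 1 lower and 1 higher at 0.2 µM and 24 h. At 0.5 µM and 24 h the Smad co-repressor Skil fell by 0.61 ± 0.12, the ligand Tgfb3 by 0.58 ± 0.15 and the latency protein Ltbp1 by 0.48 ± 0.14 (limma adjusted p = 0.000239, 0.00346 and 0.0112).

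**Figure D4:**
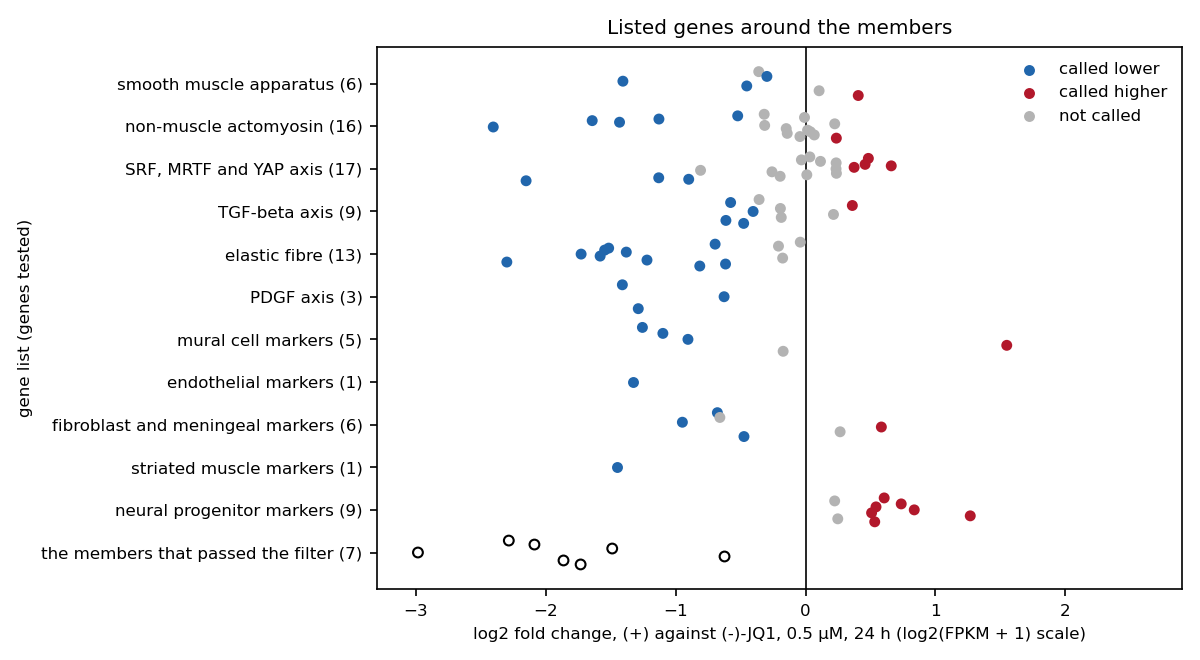
Log2 fold change of (+) against (-)-JQ1 at 0.5 µM and 24 h (log2(FPKM + 1) scale, horizontal axis) for each tested gene of the 6 pathway lists and 5 marker lists, one row a list with its number of genes tested; blue was called lower, red higher, grey neither. Open circles are the 7 members that passed the filter, shown without a call. Elastic fibre and PDGF genes lie left of 0, and neural progenitor markers right of it.

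Markers of other cells that such a culture could hold moved too, at low levels, and their part in the results above was not tested. At 0.5 µM and 24 h the 12 mural markers summed to 27.7 to 31.2 FPKM in (-)-JQ1 and 37.0 to 41.2 in (+)-JQ1, with 3 of 5 tested lower (Cspg4, Mcam and Notch3) and 1 higher, Vtn, which rose by 1.55 ± 0.21 (limma adjusted p = 5.00e-06). The 9 fibroblast and meningeal markers summed to 18.6 to 23.2 against 14.9 to 16.1, with 3 of 6 lower and 1 higher. The collagen gene Col1a1 fell by 0.68 ± 0.16 and Dcn by 0.95 ± 0.20 (limma adjusted p = 0.00221 and 0.000607), while Lum reached at most 0.474 FPKM in any library. Endothelial markers summed to 3.99 to 6.90 against 1.02 to 2.27, with Kdr at 4.92 ± 1.46 against 1.37 ± 0.635, and with Cdh5 and Cldn5 listed at 0 in all 24 libraries. Striated muscle markers summed to 1.77 to 4.65 against 0.169 to 0.581, with Tnnt1 at 2.21 ± 1.33 against 0.118 ± 0.118, and with Nkx2-5 and Myf5 listed at 0 in all 24. The 9 neural progenitor markers summed to 3219 to 4670 against 5038 to 6870, and 4, 5, 3 and 7 of 9 were called higher in the 4 comparisons.

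For each member, the genes whose levels ran most like it over the 24 libraries were looked up. The candidates were 9347 genes with a mean of at least 5 FPKM, with the members themselves left out. How closely the members ran with one another was therefore not looked up. These correlations of log2(FPKM + 1) are descriptions, since the libraries fall into the same 8 groups for every gene. The closest to Acta2 was Tmeff2 (Pearson r = 0.934), to Tagln Ogn (0.940), to Actc1 Gas7 (0.973), to Tpm1 Morf4l2 (0.954) and to Eln Kazn (0.941). Myl9 and Pdgfrb shared their closest gene, Tmcc2, at 0.9746 and 0.951. One gene of the lists above was among the 3 closest to any member, Cnn2, second for Tagln at 0.937.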

How the data were processed

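Poly(A)-selected RNA was sequenced as 50-base single-end reads and aligned to mm9 with TopHat2 after FastQC, per the labels and the submitters' processing notes, which give no versions. The authors deposited FPKM by gene symbol. Which program, annotation and scaling made them is not given in the sources used here. 58 entries of 29 repeated symbols were left out. A gene had to reach 1 FPKM in 3 or more libraries, and the 13801 that did were fitted as log2(FPKM + 1) in limma 3.58.1 (R 4.3.3; trend, robust), with 8 group means over 24 libraries and 16 residual degrees of freedom. A gene is called where its adjusted p (Benjamini-Hochberg, all 13801) is below 0.05. Such a fold change understates that of low genes. The fit was tested on simulated data. In 1821 of 2306 low genes all values were within 1% of whole reads, which gave relative depth. FPKM are not counts, and no count test was run. The 9 genes and all lists were chosen with earlier results of these data known. Named list genes are the 3 largest called changes per list at 0.5 µM and 24 h, marker genes and others named for context after their values were seen. Alternatives were a pseudocount of 0.1, no filter, median-ratio scaling, the replicate number as a block, only the 6 libraries compared, no Mir5105-rich libraries, and each replicate left out.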

Additional observations from a re-analysis of the deposited data

Results flagged for a closer look

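The following 3 values stand out because the effect of (+) against (-)-JQ1 differed between doses or times by a test of the difference itself, in limma over all genes. From 12 to 24 h at 0.5 µM the effect on Csrp2, a LIM protein of the SRF list, changed by -1.32 ± 0.22 (adjusted p = 0.00545). In the same contrast Efemp1, a fibulin of the elastic fibre list, changed by -1.19 ± 0.26 (adjusted p = 0.0479), its mean going from 0.621 to 2.89 FPKM in (-)-JQ1 and from 0.253 to 0.345 in (+)-JQ1. Pdgfra changed its effect between 0.2 and 0.5 µM at 24 h by -0.72 ± 0.15 (adjusted p = 0.0383).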

How the results depend on the processing

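The 28 log2 fold changes of members that passed the filter kept their direction in all 335 alternative fits, and 328 stayed on the same side of the threshold. Pdgfrb at 0.5 µM and 12 h had 11 alternatives and the other results 12. With only the 6 libraries of that comparison Pdgfrb did not pass the filter. A total of 6 calls were lost. Of these, 5, at 12 h for Acta2, Tagln and Eln, were lost when 1 library was left out, as given above, and that of Eln at 0.2 µM and 24 h with only the 6 libraries of its comparison. Tpm1 at 0.5 µM and 12 h became called in the latter fit. Counts of pathway genes called (28, 30, 31 and 35) stayed within 1.5 times in total. The part called higher did not, as given above for single libraries, and was 1 at 0.2 µM and 24 h with only the 6 libraries compared. With 1 replicate left out the totals ran from 20 to 23 at 0.2 µM and 12 h, 25 to 28 at 0.5 µM and 12 h, 26 to 33 at 0.2 µM and 24 h, and 28 to 33 at 0.5 µM and 24 h. With the replicate number as a block (replicate block) the totals were 29, 31, 33 and 35. Same-numbered libraries of compared groups deviated together with correlations from -0.345 to 0.358, over 0.1 in 7 of 12 pairs (all 3 at 0.2 µM and 12 h). These values do not settle whether same-numbered libraries share a preparation, and the main fit did not treat them as pairs. The block changed no member's call. Depth limits Cnn1 and Tpm2, with at most 37 and 30 reads a library, and Actc1 in (+)-JQ1 at 24 h.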
